A study of Mus musculus with 10 samples.

Results

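The genes described here encode the oxidative phosphorylation system of the mouse: 113 of the 60676 rows of the count table. They were chosen by name, and the rule itself uses no measured value, although earlier results of these data were known when it was set. A row was a member if its Ensembl identifier maps to a symbol that starts with Nduf, Uqcr, Atp5 or Cox4 to Cox8, to Sdha, Sdhb, Sdhc, Sdhd, Cyc1 or Cycs, or to a protein gene of the mitochondrial genome. Pseudogene symbols ending in -ps were left out, which removed 9 rows. Of the members, 13 are mitochondrially encoded and 100 are nuclear. The prefix rule also takes in 8 Ndufaf genes, which encode assembly factors of complex I and not subunits.

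RNA sequencing was done on 10 libraries of cultured mouse tumour cells, in 5 groups of 2. The B16 cells are melanoma and the MC38 cells colon adenocarcinoma, both established lines. In every group Sdc1, the gene of the cell-surface proteoglycan syndecan-1, was knocked down, and the cells received interferon-gamma at 10 ng/ml for 24 hours. In MC38 the knockdown stood by itself, with a mutant labelled c30 or with a mutant labelled ect. In B16 it stood by itself or together with wild-type Sdc1. The labels do not describe the mutants further, and no group lacks the knockdown or the interferon. Nor do they say whether paired libraries are separate cultures. The p-values therefore reflect the spread of these libraries only, and that spread may be technical.

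Oxidative phosphorylation couples electron transfer to ATP synthesis in the inner mitochondrial membrane. Complex I and complex II pass electrons from NADH and succinate to ubiquinone, complex III passes them on to cytochrome c, complex IV reduces oxygen, and complex V makes ATP from the proton gradient that complexes I, III and IV build. Complexes I, III, IV and V are assembled from subunits of both genomes, whereas complex II and cytochrome c are wholly nuclear. The mitochondrial genes are read as long transcripts that are cut into separate messengers, while each nuclear gene has its own promoter.

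Library totals ran from 11349447 to 15041133 counts, so 3 counts, taken as the floor of detection, correspond to 0.199 to 0.264 counts per 1000000 (CPM). Sdc1 itself had 24.5 and 29.99 CPM in the MC38 knockdown, 97.0 and 99.5 with c30, 22.4 and 25.2 in the libraries labelled ect, 40.7 and 43.1 in the B16 knockdown and 71.1 and 56.9 with wild-type Sdc1. The Sdc1 counts thus do not set the libraries labelled ect apart from the knockdown, and those labels are used as given. The 12 melanocyte markers summed to 22800 to 24068 CPM in B16 and to 296 to 423 CPM in MC38, where Gpnmb held most of the sum and Tyr had 0 or 1 count. Dct had 0 and 0 counts in the MC38 knockdown, 4 and 28 with c30 and 2 and 3 in the libraries labelled ect. In c30 replicate 2, 6 of the 12 markers were at 1 CPM or more, against 3 to 5 in the other MC38 libraries. The cause was not tested. In MC38 the colon label has little marker support: the 15 epithelial markers summed to 12.1 to 19.2 CPM, and Epcam had 2 to 6 counts. Cdh1 held most of that sum in the MC38 knockdown, at 13.7 and 13.9 CPM. It had 9.25 and 7.31 CPM with c30, 5.53 and 6.85 CPM in the libraries labelled ect, and 0.09 to 0.87 CPM in B16. For the 12 leukocyte markers the sum was between 2.03 and 4.96 CPM everywhere.

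Measured per length, the most abundant members were mitochondrial. Over the 10 libraries mt-Co1, the catalytic subunit of complex IV, averaged 4293 CPM per kilobase of exon. It was followed by mt-Cytb, the cytochrome b of complex III, at 1811 CPM per kilobase, and by mt-Nd1, a membrane subunit of complex I, at 1273. Next came mt-Nd5, also a subunit of complex I, at 552 CPM per kilobase. The highest nuclear members were the catalytic beta and alpha subunits of complex V, Atp5b at 424.6 and Atp5a1 at 293 CPM per kilobase. Within complexes II to IV the highest nuclear levels were those of Sdhd in complex II, at 138 CPM per kilobase, of Uqcr10 in complex III, at 122, and of Cox8a in complex IV, at 208.

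The isoform genes known from muscle, hypoxia or the germ line were at or near the floor. Cox4i1, the common form of complex IV subunit 4, had 2169 to 2827 counts, whereas Cox4i2, the form known from lung and hypoxia, had 0 to 4. The striated-muscle forms Cox6a2 and Cox8b had 1 to 11 and 0 to 3 counts. Cox6b2 and Cox7b2, known from testis, had at most 2 and 1 count, and Cox8c had 0 in every library. Ndufa4l2, a hypoxia-induced relative of Ndufa4, had 0 to 7 counts. Cox7a1, the heart and muscle form of subunit 7a, had 5 to 22 counts in MC38 and 4 to 8 in B16. After the filter on low counts 101 members were tested within MC38, 101 within B16 and 102 across both lines, with all 13 mitochondrial members among them each time. Tested in no comparison were Cox4i2, Cox6a2, Cox6b2, Cox6c2, Cox7b2, Cox8b, Cox8c, Ndufa11b, Ndufa4l2 and Ndufs6b, together with a second row named Atp5o that is at 0 in every library. Ndufb4c was not tested within MC38, and Cox7a1 was not tested within B16.

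Along the mitochondrial genome the levels fell into separate ranges, and the low range coincides with a stretch of 6 genes. Near-identical nuclear copies are annotated for 5 of them. The 6 neighbouring genes from mt-Co2 to mt-Nd4l held 1805 to 2978 counts per library in sum, whereas mt-Co1, which lies next to them, held 65086 to 105105. Within that stretch mt-Co2 had 773 to 1212 counts, mt-Co3 682 to 967, mt-Atp6 279 to 642, mt-Nd3 20 to 62, mt-Nd4l 24 to 51 and mt-Atp8 14 to 44. On chromosome 1 of GRCm38, the GENCODE M21 annotation places 7 pseudogene rows side by side between 24611535 and 24616197, on the minus strand, that match mitochondrial members at 98% or more of their bases. The matches are 678 of 678 bases between mt-Atp6 and Gm10925, 681 of 681 between mt-Co2 and Gm28661, 783 of 783 between mt-Co3 and Gm28437 and 294 of 294 between mt-Nd4l and Gm10222. They are 876 of 876 for part of mt-Nd4 (Gm28439), 482 of 483 for part of mt-Co1 (Gm29216) and 344 of 345 for mt-Nd3 (Gm28438). Of mt-Atp8, 43 of 204 bases match, in Gm10925. Only annotated GENCODE M21 transcripts were searched, so a copy in unannotated sequence, of mt-Atp8 or another gene, would not have been found. These 7 rows held 3261 to 5427 counts per library in sum, more in every library than the 6 mitochondrial genes from mt-Co2 to mt-Nd4l. Reads from such sequences can be split, dropped or assigned to either row, and the labels and notes do not record how the authors' counting treated them. The values of these genes are therefore uncertain. The 6 genes carry little weight in the summed mitochondrial counts, which were 121810 to 185706 per library. Their part in results for single genes and complexes was not tested.

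The pair with a single difference shows how alike the copies are. The first 120 bases of mt-Nd3, a membrane subunit of complex I (chrM:9459-9806, plus strand), and of Gm28438 (chr1:24612775-24613119, minus strand; both GRCm38, GENCODE M21) are given below, with the differing base in capitals. Counted from 1 at the 5′ end, the difference is T3C, with the base of mt-Nd3 first.
mt-Nd3: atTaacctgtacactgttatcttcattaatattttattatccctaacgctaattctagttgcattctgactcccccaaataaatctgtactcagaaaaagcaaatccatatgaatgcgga
Gm28438: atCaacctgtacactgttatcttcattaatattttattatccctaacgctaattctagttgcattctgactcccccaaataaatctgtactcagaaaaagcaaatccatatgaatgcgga
In the 10 libraries the row of mt-Nd3 had 20 to 62 counts and that of Gm28438 had 71 to 121.

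**Figure D1:**
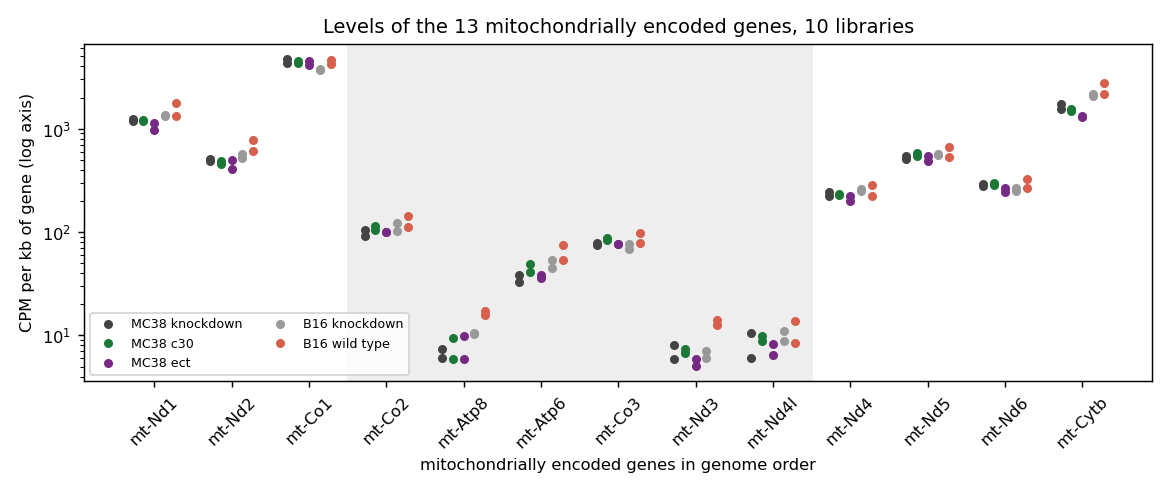
Level of each of the 13 mitochondrially encoded genes in CPM per kilobase of gene (vertical log axis), in the order of the mitochondrial genome, with 1 point per library and 2 per group. The 6 shaded genes, mt-Co2 to mt-Nd4l, lie below mt-Co1 in all 10 libraries. Near-identical nuclear copies are annotated for 5 of them, and for mt-Atp8 over part of its length only.

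The balance of the genomes was read as the ratio of summed mitochondrial to summed nuclear member counts, which is free of any scaling between libraries. The MC38 knockdown had 1.52 and 1.48 mitochondrial counts per nuclear count. With c30 the ratio was 1.45 and 1.40, and in the libraries labelled ect it was 1.29 and 1.41. The B16 knockdown had 0.974 and 0.921, and B16 with wild-type Sdc1 had 0.902 and 1.24. The ratio was thus highest in the MC38 knockdown and lowest in B16, with the second wild-type library of B16 apart from the other 3 libraries of that line. In bulk samples, fewer cells of a kind and less RNA per cell cannot be told apart.

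On the log2 scale the B16 knockdown lay 0.66 below the MC38 knockdown (-0.08 ± 0.06 against 0.58 ± 0.03, SD, n = 2 each), and the groups did not overlap. The difference to the MC38 knockdown was -0.07 with c30 and -0.15 in the libraries labelled ect, against pooled SDs of 0.03 and 0.07, again with no overlap. The libraries with c30 and those labelled ect overlapped, with a difference of 0.08. Wild-type Sdc1 and knockdown overlapped in B16, with a difference of 0.16 against a pooled SD of 0.23. With 2 libraries a group the smallest 2-sided p of an exact permutation test is 0.333, so these ratios carry no test.

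The ratio is weighted by a few genes, because mt-Co1 made up 48.1% to 59.9% of the mitochondrial counts. Without mt-Co1 and the nuclear member with the most counts, the line difference was -0.37. It was -0.86 when the median of log2(CPM + 1) over each class took the place of the sums. Both settings put the B16 knockdown below the MC38 knockdown. Wild-type B16 replicate 2, at -0.34 and 1.53, was above both MC38 knockdown libraries under the first setting and below them under the second. Both settings also gave larger differences for the libraries labelled ect, -0.23 under each.

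By complex, the line difference was largest in complex IV, whose mean log2 ratio of mitochondrial to nuclear counts was 2.61 in the MC38 knockdown and 1.57 in the B16 knockdown. In complex I it was 0.87 and 0.47, and in complex III, where mt-Cytb is the only mitochondrial subunit, 1.37 and 1.16. In complex V both mitochondrial subunits lie in the low stretch: mt-Atp6 and mt-Atp8 summed to 23.7 to 54.8 CPM per library, against 3547 to 6151 CPM for the nuclear subunits.

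**Figure D2:**
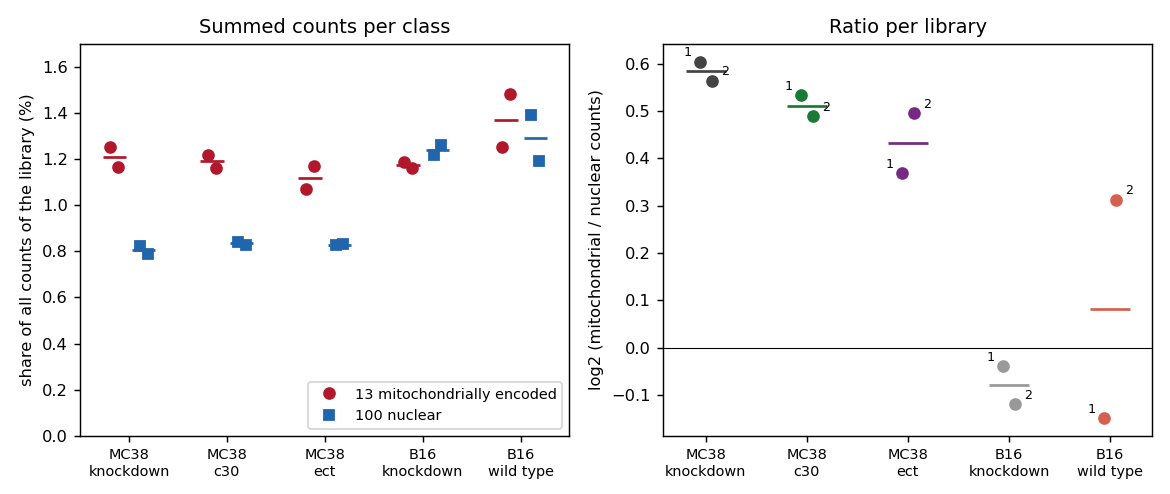
Left, share of all counts of a library (%) in the 13 mitochondrially encoded members (circles) and the 100 nuclear members (squares); right, log2 of the ratio of these sums, with replicate numbers beside the points. Each point is 1 library and each bar a group mean; the 4 B16 libraries lie below the 6 MC38 libraries at right, and wild-type replicate 2 is the highest of B16.

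Nuclear members were higher in the B16 knockdown than in the MC38 knockdown across every complex, whereas most mitochondrial members did not pass the test. Of the 102 members tested, 74 rose and 3 fell at an adjusted p under 0.05 (edgeR quasi-likelihood test, Benjamini-Hochberg adjustment over all genes tested). Of all 16877 genes tested 68.2% were called, 33.8% as higher and 34.3% as lower, so a call by itself is common between the lines. Among the 89 nuclear members 71 rose and 2 fell, with a median log2 fold change of 0.66 against -0.01 over all genes. Among the 13 mitochondrial members 3 rose and 1 fell, with a median of 0.18. The group means set different lines side by side, so line, culture and any difference in the knockdown cannot be told apart.

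In complex I, 29 of 36 nuclear subunits tested rose and 2 fell. Ndufa5, an accessory subunit, had 24.6 and 20.4 CPM in the MC38 knockdown and 63.6 and 72.8 CPM in the B16 knockdown. The groups lay far apart, with a log2 fold change of 1.64 ± 0.12 (SE, edgeR adjusted p = 4.71e-12). Ndufa9, an accessory subunit near the ubiquinone site, had 71.0 and 73.4 CPM in MC38 and 179 and 180 CPM in B16, a log2 fold change of 1.35 ± 0.08. Ndufb2, also accessory, rose by 1.56 ± 0.28 from low levels of 2.83 and 4.37 CPM to 9.47 and 11.2 CPM. The exceptions were Ndufv1 and Ndufa7. Ndufv1 carries the flavin that takes electrons from NADH, and had 137 and 137 CPM in MC38 against 105 and 99.9 CPM in B16. Its log2 fold change was -0.37 ± 0.08 (edgeR adjusted p = 0.000154). Ndufa7, an accessory subunit, had 82.1 and 73.5 CPM in MC38 against 62.2 and 57.6 CPM in B16, a change of -0.34 ± 0.10. Its adjusted p was 0.0803 without MC38 knockdown replicate 1 and 0.0666 without B16 knockdown replicate 2. Of the 8 Ndufaf assembly factors 5 rose and none fell.

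Complex II, which has no mitochondrial subunit, rose in all 4 of its genes. Sdhb, the iron-sulfur subunit, had 105 and 103 CPM in the MC38 knockdown and 188 and 194 CPM in the B16 knockdown, a log2 fold change of 0.92 ± 0.07. Sdha, the flavoprotein that oxidises succinate, rose by 0.46 ± 0.07, and the membrane anchors Sdhd and Sdhc by 0.55 ± 0.07 and 0.38 ± 0.08. All 9 nuclear subunits of complex III rose as well. Cyc1, the cytochrome c1 that hands electrons to cytochrome c, had 113 and 112 CPM in MC38 and 181 and 204 CPM in B16, a log2 fold change of 0.82 ± 0.09.

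Cycs, the mobile carrier cytochrome c and a trigger of apoptosis when it leaves mitochondria, was among the members with the largest rise. It had 107 and 91.6 CPM in the MC38 knockdown and 434 and 382 CPM in the B16 knockdown, a log2 fold change of 2.08 ± 0.08 (edgeR adjusted p = 7.06e-18). Every B16 library was above every MC38 library. The largest rise of all tested members was that of Ndufa4 (ENSMUSG00000029632.8), a protein first assigned to complex I and now counted with complex IV. It had 55.5 and 52.1 CPM in MC38 and 258 and 278 CPM in B16, a log2 fold change of 2.36 ± 0.09 (edgeR adjusted p = 2.53e-19).

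In complex IV, 10 of 13 nuclear members tested rose, Ndufa4 included, and none fell. Cox5b, a subunit on the matrix side, had 80.1 and 79.7 CPM in the MC38 knockdown and 217 and 227 CPM in the B16 knockdown, a log2 fold change of 1.51 ± 0.08. The rise was uneven within the complex. Cox7b rose by 1.27 ± 0.07, Cox7a2 by 1.14 ± 0.08, Cox6b1 by 0.76 ± 0.07, Cox6a1 by 0.52 ± 0.09 and Cox8a by 0.19 ± 0.08. Cox4i1, with 205 and 203 CPM in MC38 against 179 and 189 in B16, was not called (log2 fold change -0.11 ± 0.07, edgeR adjusted p = 0.157). Nor were Cox7a2l and Cox7a1, at 0.13 and -0.99.

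In complex V, 13 of 16 nuclear members tested rose and none fell. Atp5mpl, a small membrane subunit, had 33.2 and 30.8 CPM in the MC38 knockdown and 98.3 and 103 CPM in the B16 knockdown, a log2 fold change of 1.69 ± 0.09. The catalytic pair diverged: Atp5b rose by 0.83 ± 0.07, whereas Atp5a1 had a log2 fold change of 0.04 ± 0.07 and was not called. The Atp5g genes encode the identical mature subunit of the c ring, which turns with the proton flow, and they also differed. Atp5g3 rose by 1.15 ± 0.08 and Atp5g1 by 0.43 ± 0.17, while Atp5g2 stood at -0.09 ± 0.08. Atp5o, the stalk subunit also known as the oligomycin sensitivity protein, rose by 1.46 ± 0.30 on only 29 to 127 counts. In GENCODE M21, 47.9% of its exon bases overlap other genes on either strand, so its counts are uncertain.

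The mitochondrial members moved apart from each other between the lines. mt-Co1 had 7232 and 6688 CPM in the MC38 knockdown and 5889 and 5665 CPM in the B16 knockdown, a log2 fold change of -0.23 ± 0.06 (edgeR adjusted p = 0.00222). mt-Cytb had 1971 and 1779 CPM in MC38 and 2475 and 2351 CPM in B16, a log2 fold change of 0.40 ± 0.08 (edgeR adjusted p = 0.000211). Neither gene's groups overlapped. The fall of mt-Co1 did not pass without MC38 knockdown replicate 1 (adjusted p = 0.0588) or without B16 knockdown replicate 2 (0.0532). mt-Atp6 and mt-Co2, both with nuclear copies, rose by 0.52 ± 0.14 and 0.24 ± 0.10. The call of mt-Co2 was lost without MC38 knockdown replicate 2 or B16 knockdown replicate 2, with DESeq2 and with a filter of 5 CPM. The other 9 had log2 fold changes between -0.11 and 0.66 and were not called, among them mt-Nd6, the only protein gene on the opposite strand, at -0.11.

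**Figure D3:**
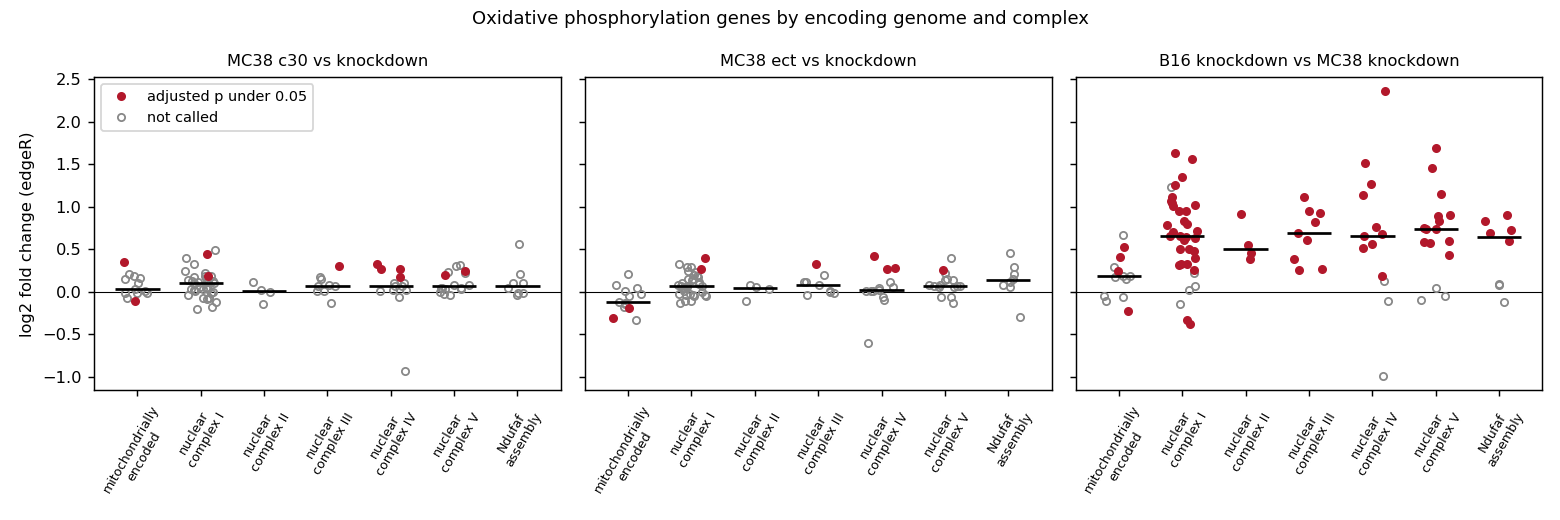
Log2 fold change (edgeR) of each tested member in 3 comparisons, with mitochondrially encoded genes, the nuclear subunits of each complex and the Ndufaf factors in separate columns. Each point is a gene, filled where the adjusted p was under 0.05, and bars are medians; in the line comparison all columns of nuclear subunits have medians above 0.5, against 0.18 for the mitochondrial column. Cycs is not plotted.

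Respiratory promoters are known to carry sites of NRF1, of the ETS-family factor GABP and of YY1. RefSeq promoter windows of GRCm38.p6, from 250 bases before to 50 after the start, were matched for 75 of the 100 nuclear members and searched on both strands. The NRF1 core, GCGCA followed by any base and GCGC, was found in 18 of these 75 windows (24.0%) and in 4.78% of all 27025 windows. The ETS core CCGGAAG was found in 17 (22.7%) against 9.12%, and the YY1 core AAGATGGC in 9 (12%) against 2.88%. A match describes the letters only. The 250 bases before the start are shown for 4 members. Sdhd and Cox6a1 hold NRF1 and ETS letters, given in capitals. Cycs and Ndufa4, with the largest rises, hold no exact match to the 3 motifs in this window. Near matches were not searched for: the Cycs window holds tcgcatgcgc, which differs from the NRF1 core in its first base only.
Sdhd (GRCm38.p6 chr9:50603850-50604099, minus strand): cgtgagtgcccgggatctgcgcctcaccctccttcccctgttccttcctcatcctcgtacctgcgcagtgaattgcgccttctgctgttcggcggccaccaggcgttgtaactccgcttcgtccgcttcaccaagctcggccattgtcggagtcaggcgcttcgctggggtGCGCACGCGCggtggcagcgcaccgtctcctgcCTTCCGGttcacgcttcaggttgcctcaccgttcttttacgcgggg
Cox6a1 (GRCm38.p6 chr5:115348959-115349208, minus strand): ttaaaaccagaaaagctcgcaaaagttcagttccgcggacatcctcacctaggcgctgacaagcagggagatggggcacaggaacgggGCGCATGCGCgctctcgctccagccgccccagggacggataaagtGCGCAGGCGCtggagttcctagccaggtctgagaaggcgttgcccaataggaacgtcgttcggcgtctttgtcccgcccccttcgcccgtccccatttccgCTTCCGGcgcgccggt
Cycs (GRCm38.p6 chr6:50566570-50566819, minus strand): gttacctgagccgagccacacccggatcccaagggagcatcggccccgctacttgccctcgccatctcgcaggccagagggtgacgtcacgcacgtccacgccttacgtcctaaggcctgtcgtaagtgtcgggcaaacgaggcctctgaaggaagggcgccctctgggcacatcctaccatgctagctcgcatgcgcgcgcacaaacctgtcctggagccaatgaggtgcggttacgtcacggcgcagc
Ndufa4 (GRCm38.p6 chr6:11907451-11907700, minus strand): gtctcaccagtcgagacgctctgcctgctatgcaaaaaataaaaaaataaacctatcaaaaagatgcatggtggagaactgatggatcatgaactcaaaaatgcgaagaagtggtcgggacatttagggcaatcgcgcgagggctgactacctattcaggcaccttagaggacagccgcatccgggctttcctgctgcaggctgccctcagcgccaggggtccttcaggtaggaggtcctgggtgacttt
All 4 genes were among those that rose in B16, with and without an exact match. Whether any of these letters is a working site was not tested.

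The known regulators of these promoters moved in both directions, with coactivators and the nuclear receptor they act with higher in B16. Ppargc1a, the coactivator PGC-1alpha, had 0 to 5 counts in the 6 MC38 libraries and 684 to 776 counts in the 4 B16 libraries (edgeR adjusted p = 2.25e-20 between the knockdowns). Its relative Ppargc1b had 51 and 56 counts in the MC38 knockdown and 192 and 173 in the B16 knockdown, a log2 fold change of 1.95. Esrra, the receptor ERR-alpha, had 10.5 and 11 CPM in MC38 and 37.0 and 39.0 CPM in B16, a log2 fold change of 1.86. The DNA-binding factors differed less: Nrf1 rose by 0.30 and Yy1 by 0.60, while Gabpa fell by 0.28 on the log2 scale. Of 17 regulators tested 6 rose and 6 fell in all, or 70.6% called, beside 68.2% of all genes. Their median log2 fold change was -0.032, and most of those that fell are not named here. Any part of the regulators in the levels of the members was not tested.

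Other mitochondrial gene groups moved in both directions between the lines. Of 55 respiratory complex assembly factors tested, the Ndufaf genes included, 28 rose and 9 fell (median log2 fold change 0.30). Of 78 mitochondrial ribosomal proteins 33 rose and 8 fell (0.19), and of 38 genes of protein import and inner membrane structure 22 rose and 7 fell (0.23). Of 28 genes of the tricarboxylic acid cycle and pyruvate dehydrogenase 13 rose and 10 fell (0.11), with Idh3a, a subunit of the NAD-dependent isocitrate dehydrogenase, up by 1.21. Of 25 carriers and related enzymes 11 rose and 6 fell, and Slc25a5, an adenine nucleotide exchanger, rose by 1.42. Of 35 genes for mitochondrial DNA and transcripts 12 rose and 8 fell, with a median of -0.03. There Rexo2, an oligoribonuclease, rose by 1.64, while Hsd17b10, a subunit of the RNase that frees tRNA 5′ ends, fell by 1.60 and Lrpprc, which stabilises mitochondrial messengers, fell by 0.54 on the log2 scale. These medians stand beside -0.01 over all genes. In the order given, 67.3%, 52.6%, 76.3%, 82.1%, 68% and 57.1% of the genes tested were called, beside 68.2% of all genes. A call by itself therefore does not set these groups apart.

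**Figure D4:**
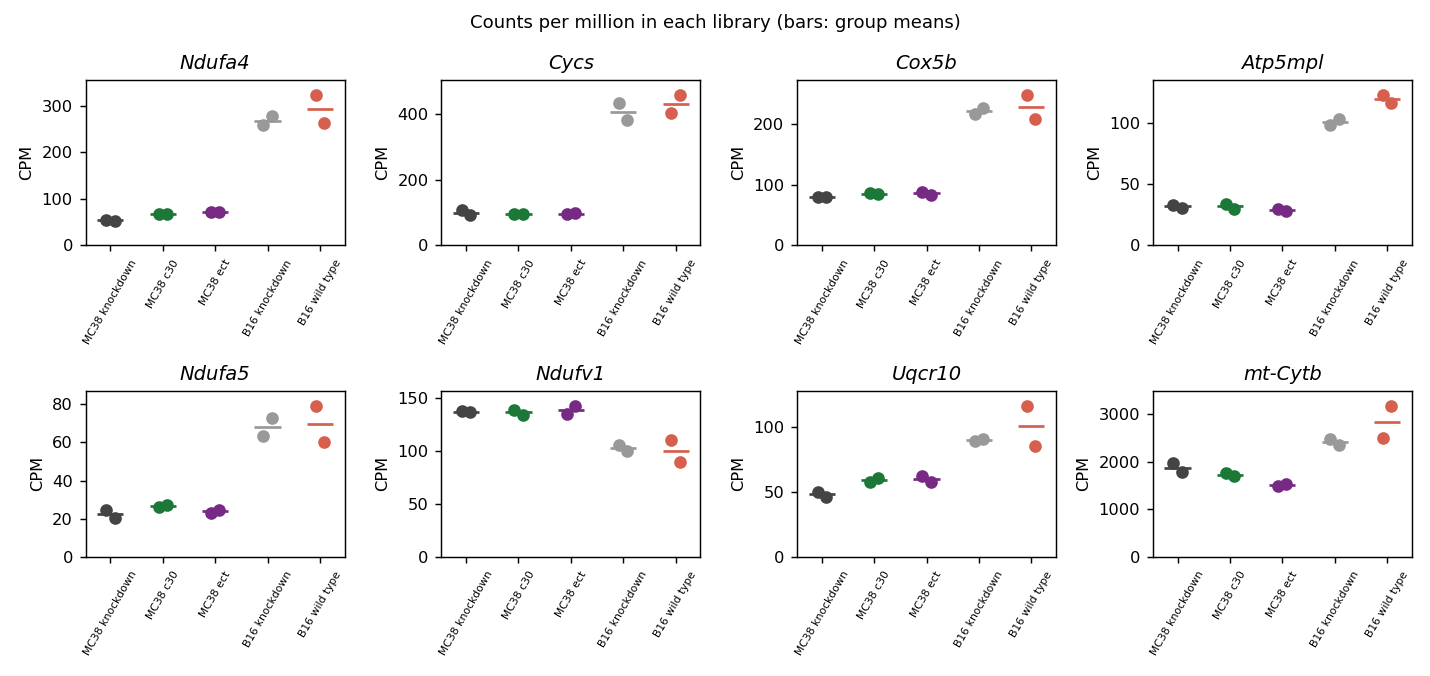
CPM of 8 members in each library (points) with group means (bars), each panel with its own axis from 0. Ndufa4, Cycs, Cox5b, Atp5mpl and Ndufa5 are higher in all 4 B16 libraries than in all 6 MC38 libraries, Ndufv1 is lower, and Uqcr10 and mt-Cytb also differ within MC38.

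Within MC38, a small number of nuclear members were higher with c30, by modest amounts. Of 101 members tested 10 rose and 1 fell against the knockdown, or 10.9% called, beside 7.75% of all 15031 genes tested (3.3% higher, 4.45% lower). With a filter of 5 CPM in 2 libraries 11 members were called, beside 535 genes higher and 682 lower of 10915 tested. The share over all genes was thus larger among genes with more counts, and 10.9% does not set the members apart. The 9 nuclear members that rose were Ndufa2, Ndufa4, Uqcr10, Cox6a1, Cox7c, Atp5g3, Atp5d, Ndufa10 and Cox8a, with log2 fold changes from 0.17 to 0.44. No nuclear member fell, and the median over the 88 nuclear members tested was 0.0678 against 0.00129 over all genes. The mitochondrial members did not share a direction: mt-Atp6, which has a nuclear copy, rose by 0.35 ± 0.11, mt-Cytb fell by 0.11 on the log2 scale, and their median was 0.0343.

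By complex, 4 of the nuclear members called belong to complex IV, of 13 tested. Ndufa4 had 55.5 and 52.1 CPM in the knockdown and 67.4 and 67.6 CPM with c30, a log2 fold change of 0.33 ± 0.07 (edgeR adjusted p = 0.00103). Cox6a1, the common form of subunit 6a, had 106 and 102 CPM in the knockdown and 122 and 127 CPM with c30, a change of 0.27 ± 0.06 (edgeR adjusted p = 0.000796). Cox7c, a small membrane subunit, had 89.4 and 74.1 CPM against 95.4 and 100 CPM. In none of these genes did the groups overlap, although the knockdown values of Cox7c lie far apart. In complex I, Ndufa2, an accessory subunit of the peripheral arm, had 19.8 and 21.5 CPM in the knockdown and 26.4 and 29.4 CPM with c30, a change of 0.44 ± 0.11. In complex III, Uqcr10 had 49.4 and 46.3 CPM against 57.6 and 60.2 CPM, a change of 0.30 ± 0.08. In complex V, Atp5g3 of the c ring and Atp5d of the central stalk changed by 0.24 ± 0.06 and 0.20 ± 0.06. None of the 4 complex II genes was called.

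The count of members called with c30 fell without knockdown replicate 2, c30 replicate 1 or c30 replicate 2, and so did the count over all genes. The reported fit called 496 genes higher and 669 lower in all. With DESeq2 3 members were called, beside 194 genes higher and 319 lower. When all 10 libraries shared 1 fit, and hence the larger spread of B16, 0 members were called, beside 64 genes higher and 190 lower. mt-Cytb is at the edge of the threshold, with an edgeR adjusted p of 0.0478. Without knockdown replicate 1 its log2 fold change was -0.04 (edgeR adjusted p = 0.632). The 8 fibroblast and endothelial markers, used as a sign of other cell types, summed to 144 and 153 CPM in the knockdown, 107 and 114 CPM with c30 and 110 and 103 CPM in the libraries labelled ect. Pdgfrb made up most of that sum, and Pecam1, an endothelial marker, was at 2.19 to 3.06 CPM in the MC38 libraries. Their part in the results was not tested.

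In the libraries labelled ect, 7 of the 88 nuclear members tested rose against the same knockdown libraries, and 2 of the 13 mitochondrial members fell. No nuclear member passed the test as lower and no mitochondrial member as higher. In all, 8.91% of 101 were called beside 8.16% of all genes (3.55% higher, 4.61% lower), a share close to the background. mt-Cytb (ENSMUSG00000064370.1) had 1971 and 1779 CPM in the knockdown and 1485 and 1531 CPM in the libraries labelled ect. The groups did not overlap, and the log2 fold change was -0.30 ± 0.04 (edgeR adjusted p = 5.32e-09). mt-Nd1 had 1190 and 1137 CPM against 939 and 1085 CPM, a change of -0.19 ± 0.04 (edgeR adjusted p = 0.0027). The call of mt-Nd1 was lost without either knockdown replicate, without ect replicate 1 and with DESeq2. Across the 13 mitochondrial members 9 estimates were negative and 4 positive, with a median of -0.118, and mt-Co1 stood at -0.04 ± 0.03.

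The 7 nuclear members that rose were Ndufa4, Ndufa2, Uqcr10, Cox6a1, Ndufa9, Cox7c and Atp5g3, with log2 fold changes from 0.25 to 0.42. Ndufa4 had 72.1 and 71.1 CPM in the libraries labelled ect, a change of 0.42 ± 0.07 (edgeR adjusted p = 1.02e-05). It was the only member called when all 10 libraries shared 1 fit, where mt-Cytb had an adjusted p of 0.0714. Ndufa9 had 71.0 and 73.4 CPM in the knockdown and 84.1 and 88.6 CPM in the libraries labelled ect, a change of 0.27 ± 0.06. Uqcr10 had 61.8 and 57.4 CPM there, Cox6a1 had 125 and 125 CPM, and Cox7c had 99.5 and 96.2 CPM. Because both mutants are set against the same 2 knockdown libraries, a low or high value there enters each comparison, and the values are given side by side only.

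Set against each other, c30 and the libraries labelled ect differed in 1 member, mt-Cytb, beside 0.299% of all genes called. It had 1758 and 1697 CPM with c30 and 1485 and 1531 CPM in the libraries labelled ect, with no overlap and a log2 fold change of 0.19 ± 0.04 (edgeR adjusted p = 0.00342). The call of mt-Cytb was lost without c30 replicate 1, c30 replicate 2 or ect replicate 1, with adjusted p-values of 0.328, 0.157 and 0.0778, while the fold change stayed between 0.18 and 0.20. Without ect replicate 2, 3 mitochondrial members were higher with c30. In all, 12 of the 13 mitochondrial estimates were positive, with a median of 0.143, against a median of -0.00222 over the 88 nuclear members.

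The ratio of mt-Cytb to mt-Co1 counts, chosen after the values of both genes were seen, gives the same ordering inside each library and does not depend on scaling. It was 0.273 and 0.266 in the MC38 knockdown, 0.25 and 0.252 with c30, and 0.232 and 0.219 in the libraries labelled ect. It was 0.42 and 0.415 in the B16 knockdown, and 0.381 and 0.445 with wild-type Sdc1. The MC38 groups did not overlap, all B16 values lay above all MC38 values, and the wild-type libraries of B16 lay on either side of their knockdown.

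Genes of the other mitochondrial groups were called in both MC38 comparisons, to be read beside 7.75% of all genes with c30 and 8.16% in the libraries labelled ect. With c30, 0 of 55 assembly factors were called (edgeR), 4 of 78 mitochondrial ribosomal proteins rose, and 2 of 35 genes of mitochondrial DNA and transcripts rose. The latter were Tbrg4, which acts on the stability of mitochondrial messengers, and Elac2, which frees tRNA 3′ ends, at log2 fold changes of 0.30 and 0.29. In the libraries labelled ect they rose by 0.31 and 0.28, and 8 of 38 import and inner membrane genes (21.1%) rose, among them the chaperonin Hspd1 by 0.21, beside 3 of 38 with c30. Of 28 genes of the tricarboxylic acid cycle and pyruvate dehydrogenase, 2 rose and 2 fell with c30 (14.3%), and 1 rose and 2 fell in the libraries labelled ect (10.7%). Among them Pdk1, a kinase that shuts down pyruvate dehydrogenase, had 91.2 and 91.7 CPM in the knockdown, 70.0 and 67.5 CPM with c30 and 68.7 and 73.1 CPM in the libraries labelled ect. Its log2 fold changes were -0.41 and -0.35 (edgeR adjusted p = 2.52e-06 and 3.16e-05). The 2 assembly factors that rose in the libraries labelled ect were Cox11, a copper chaperone of complex IV, by 0.95 and Timmdc1, an assembly factor of complex I, by 0.38.

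In B16, re-expression of wild-type Sdc1 changed no member by the test, and its 2 libraries differed from each other. Of 14336 genes tested edgeR called 0 (0%), members included, while 791 genes and 19 members had an unadjusted p under 0.05, and DESeq2 called 11 genes and 0 members. All 13 mitochondrial estimates were positive, with a median of 0.259 against 0.0726 over the 88 nuclear members.

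The wild-type libraries differed in the balance of the genomes. Nuclear members took 1.39% of replicate 1 and 1.19% of replicate 2, against 1.22% and 1.26% in the knockdown. Mitochondrial members took 1.25% and 1.48%, against 1.19% and 1.16%. The mitochondrial ribosomal RNAs mt-Rnr1 and mt-Rnr2, which are not members, took 0.141% of replicate 1 and 0.302% of replicate 2, the latter above the range of 0.118% to 0.172% in the other 9 libraries. Of 87 nuclear members with a mean of at least 20 counts in B16, 76 were above both knockdown libraries in replicate 1, but 21 were in replicate 2, where 46 were below both. Of the 13 mitochondrial members 8 were above both knockdown libraries in replicate 1 and 13 in replicate 2. The share of all genes outside the knockdown range was not counted. These counts therefore describe the libraries and do not set the members apart from other genes.

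Ndufa12, an accessory subunit of complex I, differed most between these libraries. It had 84.2 and 101 CPM in the knockdown and 97.9 CPM in wild-type replicate 1, but 27.1 CPM in replicate 2 (1237 against 339 counts). Across the libraries labelled ect it also varied, at 49.5 and 30.4 CPM. Of 87 nuclear members with a mean of at least 50 counts, 12 differed by more than 0.5 on the log2 scale between the wild-type replicates, and 1 to 3 did so between the replicates of each other group. The change between the wild-type replicates had a Spearman correlation of 0.317 with exon length across these 87 genes, against -0.09 to 0.0462 in the other groups. Neither the count nor the correlation was taken over all genes, so they do not set the members apart from other genes. Genes are not independent replicates, and these values are a description.

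Leaving out either wild-type library, with the spread then taken from the knockdown and the lone sample assumed to vary like it, gave different counts of nuclear members. Without replicate 1, 11 mitochondrial and 10 nuclear members were higher and 9 nuclear members lower, or 30 of the members, beside 8.59% of all genes (4.01% higher, 4.58% lower). mt-Nd2 was then at 0.53, mt-Cytb at 0.43 and Ndufa12 at -1.74 on the log2 scale. Without replicate 2, 19 nuclear members and 1 mitochondrial member, mt-Co1 at 0.20, were higher and none was lower, beside 2.17% of all genes (1.18% higher, 0.992% lower). Among these Ndufa4 was at 0.29, Atp5g3 at 0.32 and Uqcr10 at 0.39. The totals of the wild-type libraries were close, at 12633947 and 12526431 counts.

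**Figure D5:**
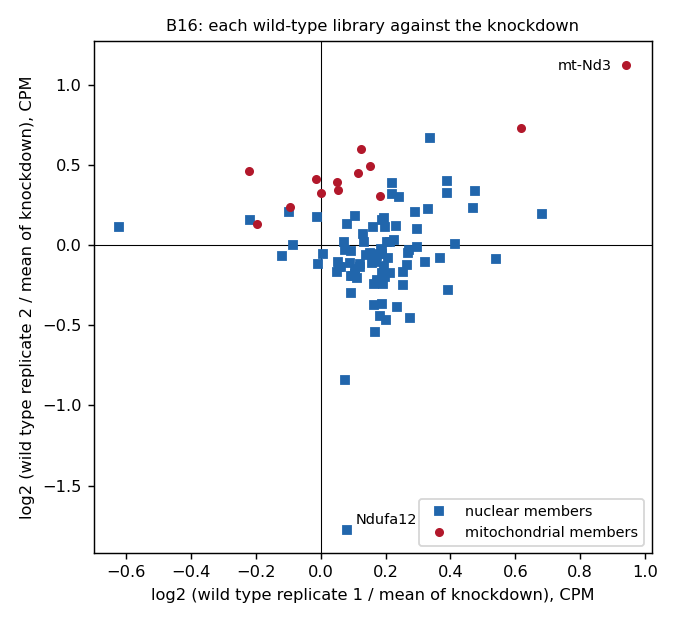
Log2 of the CPM of each wild-type B16 library over the mean CPM of the knockdown libraries, replicate 1 across and replicate 2 upward, with 1 point per member of at least 20 counts on average in B16. Nuclear members (squares) lie mostly to the right of 0 but on both sides of 0 vertically, and mitochondrial members (circles) lie above 0 vertically; Ndufa12 and mt-Nd3 are named.

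Whether the effect of wild-type Sdc1 in B16 differed from the mean effect of the mutants in MC38 was tested as an interaction over all 10 libraries. No member was called by edgeR (0 of 102, beside 0.486% of all genes). An unadjusted edgeR p under 0.05 was found for 16 members and for 1868 of all 16877 genes. DESeq2 called 2 mitochondrial members as higher in B16, beside 86 genes higher and 40 lower in all. All 13 mitochondrial estimates were positive, with a median of 0.285 against -0.0157 over the 89 nuclear members, and mt-Cytb had the smallest adjusted p among the mitochondrial members, 0.0629 at 0.46 ± 0.11. The count of members rested on the wild-type libraries. It rose, as did the count over all genes, when either was left out, which leaves a lone library in that group.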

How the data were processed

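Per the labels' protocols, TRIzol RNA was converted to paired-end HiSeq libraries of messenger RNA. The authors deposited raw counts per gene for 10 libraries. The submitters' processing notes name Trimmomatic, HISAT2 2.0.5, HTSeq, featureCounts, DESeq2 and the build GRCm39. Their order, the annotation, the strand setting and the handling of reads with several matches are not given in the sources used here. Symbols and exon lengths came from GENCODE M21 on GRCm38, whose older symbols (Atp5b, Atp5g3) are used. 51884 of 60676 rows had a symbol.

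The members and the gene lists were chosen with earlier results of these data known. Counts were tested with edgeR 4.0.16 (filterByExpr, TMM, robust quasi-likelihood test, 2-sided), with Benjamini-Hochberg adjustment over all genes tested and calls at 0.05. The 6 MC38 and the 4 B16 libraries were fitted apart, and all 10 for the lines and the interaction. The biological coefficient of variation came to 4.84% for the MC38 fit, 8.68% for the B16 fit and 6.65% for the joint fit. Totals ran from 11349447 to 15041133 counts. CPM are counts per 1000000 counts of a library, and copies were found with blastn 2.17.0. Scripts were tested on simulated data. Alternatives were other size factors, filters, DESeq2 1.42.0, a replicate block, 1 joint fit and each library left out. Named were all mitochondrial members, per comparison up to 6 called nuclear members each way with a mean of at least 5 CPM, isoforms, complex II, Cyc1 and Cycs, the 2 members with the most counts per complex, and up to 3 called genes per other list. Genes outside this rule, such as Ndufa12, Ppargc1b, Nrf1, Yy1, Gabpa and the members highest per kilobase, were chosen after their values were seen.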

Additional observations from a re-analysis of the deposited data

Results flagged for a closer look

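The rows below lie outside the members and were above the floor of 3 counts in all 10 libraries. Ndufb1-ps, left out by its suffix although Ndufb1 is a complex I subunit, had 185 to 510 counts. It had 14.6 to 18.1 CPM in the 6 MC38 libraries, 24.6 and 30.03 CPM in the B16 knockdown and 35.1 and 40.7 CPM with wild-type Sdc1. The mitochondrial ribosomal RNA mt-Rnr1 had 4546 to 13440 counts and mt-Rnr2 had 8871 to 24417, each with its highest count in wild-type B16 replicate 2.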

How the results depend on the processing

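RLE size factors, a filter of 5 CPM in 2 libraries and library sizes without mitochondrial rows left every count of called members within 1.5 times of the reported one. Without a filter on low counts 7 members were called with c30, 2 between c30 and ect and 3 with wild-type Sdc1 in B16. With all 10 libraries in 1 fit these counts were 0, 0 and 1, and 1 for ect. DESeq2 called 3 with c30 and 2 in the interaction. Leaving out each library gave 2 to 13 members for c30, 6 to 11 for ect, 0 to 3 between them, 0 to 30 for wild-type B16, 65 to 75 for the lines and 0 to 26 for the interaction. The difference in the log2 ratio of mitochondrial to nuclear counts moved under 2 settings. Without the member with the most counts of each class it was -0.23 for ect, 0.148 between c30 and ect and -0.37 for the lines. With the median of log2(CPM + 1) it was -0.227, 0.172 and -0.86. Signs were followed for the called mitochondrial members and, per comparison, for up to 6 called members each way with a mean of at least 5 CPM. None of these changed sign under any setting run. The ratio difference of wild-type B16, 0.161 with overlapping groups, was -0.07 without wild-type replicate 2. The cause was not tested. Replicate numbers do not pair the samples: deviations of same-numbered MC38 libraries correlated at 0.0412, -0.00584 and 0.00638, and of B16 at -0.177. With the replicate block 11, 9, 1, 0 and 78 members were called for c30, ect, c30 against ect, wild-type B16 and the lines. The crossed block in B16, chosen after seeing the data, called 0 members and 5 genes, against 15 genes with the block. Members within a few counts of the floor, such as Cox8b at 0 to 3, cannot be compared at this depth.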
